A study of Mus musculus with 12 samples.

Results

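The spleen of mice that carry the D272fs form of TREX1 was compared with control spleen: 8 of the 12 samples of the series, 4 titled D272fs and 4 titled control, were chosen by their sample titles. The animals were C57BL6 mice kept free of specific pathogens. Per the labels, the D272fs mice express mutant human TREX1 conditionally from a knock-in, and this C-terminal mutation had been associated with a case of human systemic lupus erythematosus (SLE). The remaining 4 samples carry V235fs, the commonest mutation in RVCL (retinal vasculopathy with leukodystrophy of the brain, a disease of small vessels), and they serve here only to ask whether a D272fs difference also lies apart from the other knock-in. The labels give no age, no promoter or Cre line, and do not say whether the control mice carry an unexpressed knock-in. Nor do they state that each sample was a different animal, so the p-values cover only the variation among these samples, which could be technical.

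TREX1 is a DNA exonuclease that clears stray DNA from the cytosol. When it fails, such DNA can be sensed by cGAS and STING, which switch on type I interferon. The frameshift mutations at its C-terminal end leave the catalytic domain in place but remove the tail that holds the enzyme at the endoplasmic reticulum. The spleen, which filters blood and houses B cells, T cells and macrophages, is a usual place to look for such an immune response.

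Each array held spleen cDNA labelled with Cy3 and a universal reference cDNA labelled with Cy5, so every value here is a log2 ratio of spleen over reference unless a single channel is named. On each array, 69.1% to 74.9% of the 35856 mouse probes had a spleen signal well above background. The negative control spots had a mean Cy3 signal of 46.3 to 48.8 on the D272fs arrays. It was 48.9 and 50.3 on control replicates 1 and 4, but 73.7 and 75.9 on replicates 2 and 3, which shared a slide. Median Cy3 before correction was 104 to 113 on the D272fs arrays and 102, 138, 220 and 120 on control replicates 1 to 4. Over the tested probes, each D272fs array correlated with the mean of the other 3 at 0.974 to 0.980, and each control array at 0.960 to 0.984. The root mean square SD between arrays was 0.204 log2 units in D272fs and 0.230 in control. All 4 D272fs arrays lay on 1 slide, which held no control array, and the 4 control arrays lay on 3 others. The D272fs arrays were scanned on 1 day and the control arrays on 2 other days, so effects of the slide or of the day of scanning cannot be told apart from those of the genotype.

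The probe IDs are not paired with genes in the files. Gene names were therefore taken only from the probe sequences: 191 of the tested probes matched a RefSeq start window (mouse build GRCm38.p6) over at least 25 bases and lay within a single gene on its strand, and 6 probes encode the signature of histone H4. The remaining probes are given by ID. No probe was tied to Trex1 in this way, so the knock-in was not checked, and no defining B cell or T cell marker was located to check the tissue.

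The probe sequences that the results turn on are shown because they are the only identity the files give. M200003525, which fell most, M300013841, which rose most in the spleen channel among probes that also differed from V235fs, and M200001601, a second such riser, are 60 bases long, and each is free of stop codons in 1 of its 3 sense frames. An open frame is common, since 89.9% of tested probes have at least 1.
M200003525: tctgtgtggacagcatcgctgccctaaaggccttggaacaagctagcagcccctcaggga
M300013841: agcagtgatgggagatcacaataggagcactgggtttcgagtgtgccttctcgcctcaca
M200001601: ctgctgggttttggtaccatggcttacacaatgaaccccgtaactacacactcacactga

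M400003274, which also fell, and M400007705 overlap over 58 bases and share 50 of them. Both are shown because so like a pair differed in its values. Capitals mark the 8 bases at which they differ within that overlap.
M400003274: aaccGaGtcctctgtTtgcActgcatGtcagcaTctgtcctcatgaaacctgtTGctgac
M400007705: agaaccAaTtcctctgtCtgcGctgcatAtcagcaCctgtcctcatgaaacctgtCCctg

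M400007082 and M400007644 are the histone H4 probes that passed the test. Capitals mark the codons of the 5-residue H4 signature.
M400007082: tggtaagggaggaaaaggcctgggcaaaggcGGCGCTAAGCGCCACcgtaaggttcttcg
M400007644: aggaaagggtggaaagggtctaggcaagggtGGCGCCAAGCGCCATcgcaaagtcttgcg

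Of 26503 probes tested, 229 (0.864%) differed between D272fs and control spleen (limma, Benjamini-Hochberg adjusted p under 0.05): 152 were higher in D272fs (0.574%) and 77 were lower (0.291%). Few changes were large. The median rise was 0.66 and the median fall 0.53 on the log2 scale. A rise of more than 1 log2 unit was measured for 28 probes and a fall of that size for 5, of which 3 fell by more than 2. The 4 D272fs arrays lay wholly above or below the 4 control arrays at all 229 called probes, as they did at 10.5% of all tested probes. The median difference over all tested probes was 0.00.

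**Figure D1:**
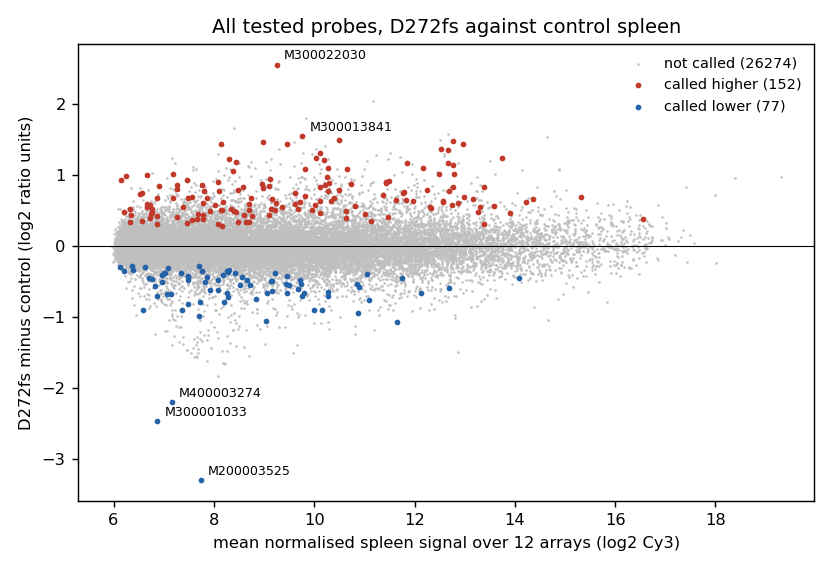
Each point is 1 of the 26503 tested probes, with its mean normalised spleen signal over the 12 arrays on the horizontal axis (log2 Cy3) and the D272fs minus control difference in log2 ratio on the vertical axis. The 152 probes called higher (red) spread over the whole range of signal, and 3 of the 77 called lower (blue) stand below -2.

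The number of probes called rested on the controls and on how the slides were treated. With slide as a random block 5 probes were called, and with scan day as one 6 were, of which 5 were the ones called with slide. No slide or scan day held both D272fs and control arrays. These blocks therefore cannot remove an effect of slide or day, and a call kept under them does not exclude one. With only the 8 arrays of both groups in the fit, 17 were called, and array weights gave 1926. Set against the 2 controls of scan day 1 alone, 1962 probes were called (859 higher), of which 207 were among the 229; against the 2 controls of scan day 2 alone, 538 were called (356 higher), of which 132 were among the 229. Leaving out 1 array moved the count to 19 (D272fs replicate 2), 28 (D272fs replicate 1), 86 (D272fs replicate 3), 251 (D272fs replicate 4), 124, 93, 208 or 647 (control replicates 1 to 4). Median centring of each array in place of loess called 3399 probes, 4.38% of them higher, and moved the median of all probes to -0.17.

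The 5 probes called with either block were M200003525, M300001033 and M400003274, which fell, and M300013841 and M200001601, which rose. M200003525, M400003274 and M300013841 were called in the same direction under all 30 alternatives tried, and no other of the 229 probes was. These 5 are described first. All but M200003525, M300001033 and M300013841 were singled out after their values were seen. M200001601 and M300001033 reached the needed 4 of 12 arrays well above background only through the group where they were high.

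M200003525 had log2 ratios of -2.07, -2.20, -2.09 and -1.87 on the D272fs arrays and 1.59, 0.96, 1.20 and 1.21 on the control arrays. The normalised ratio was thus below 0 in every D272fs sample and above 0 in every control sample. The difference was -3.30 (SE 0.12, limma adjusted p = 4.75e-08), a 9.82-fold lower level. It lay in the spleen channel, which changed by -3.46, while the reference channel changed by -0.16. Normalised Cy3 was between 6.49 and 6.69 (log2) on the D272fs arrays and between 9.69 and 10.53 on the control arrays, and the probe was well above background on all 8. No table used here names its gene. Whether the probe reads mouse Trex1 itself, in which case its fall would describe the engineered gene and not a response to it, was not tested. Under the alternatives the difference was between -4.81 and -2.75. Against the controls of scan day 1 it was -3.46 and against those of scan day 2 it was -3.14.

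M400003274 had log2 ratios of 0.13, 0.16, 0.26 and 0.24 in D272fs and 2.47, 2.52, 2.75 and 1.85 in control, with no overlap. It was 4.59-fold lower in D272fs (log2 difference -2.20, SE 0.15, limma adjusted p = 4.04e-05), again in the spleen channel (-2.26) and not in the reference (-0.06). Its partner M400007705, with the like sequence shown above, had ratios of 4.04, 4.28, 4.04 and 4.44 in D272fs and 4.71, 4.87, 4.90 and 4.29 in control. These arrays overlap, and the difference of -0.49 (SE 0.14, limma adjusted p = 0.0889) was not called. In the spleen channel alone M400007705 changed by -1.09 and was called (limma adjusted p = 0.0200), with -0.60 in the reference channel.

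M300001033 stood at 0.07, 0.12, 0.67 and 0.21 in D272fs and at 2.62, 2.77, 3.15 and 2.40 in control. It was well above background on 1 D272fs array, replicate 3, and on all 4 control arrays, so the level in D272fs was near the lower limit of the measurement and the size of the fall is uncertain. The measured difference was -2.47 (SE 0.15, limma adjusted p = 2.32e-05). The probe reached 4 of 12 arrays well above background only through the controls, so this p is no separate support for the fall. The call was lost with the mean of the negative control spots subtracted (-1.93, adjusted p = 0.186) and with Feature Extraction's processed ratios (-2.59, adjusted p = 0.0699) or the authors' value table of the same ratios (-2.59, adjusted p = 0.0711), all by limma.

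M300013841 rose. Its log2 ratios were 0.85, 0.94, 1.08 and 1.44 in D272fs and -0.48, -0.37, -0.53 and -0.48 in control. The lowest D272fs array thus stood more than 1 log2 unit above the highest control array. The difference was 1.54 (SE 0.11, limma adjusted p = 4.04e-05), a 2.91-fold higher level, with 1.48 in the spleen channel and -0.07 in the reference. Against the controls of scan day 1 and of scan day 2 it was 1.56 and 1.53.

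M200001601 had ratios of 0.88, 1.08, 1.15 and 0.85 in D272fs and 0.00, 0.05, 0.15 and 0.02 in control (log2 difference 0.93, SE 0.08, limma adjusted p = 1.82e-04). It was well above background on all 4 D272fs arrays and on none of the control arrays. Against the lowest signals well above background on those arrays, its level in D272fs was at least 1.62-fold higher. No V235fs array was well above background either, so the probe passed the filter of 4 of 12 arrays only through D272fs. Its adjusted p is therefore no separate support for the rise. With a normexp correction on the local background the difference was 0.57 and the call was lost (limma adjusted p = 0.144). That correction failed on D272fs replicate 3.

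Whether a difference from control also set D272fs apart from the other knock-in was tested between D272fs and V235fs in the same model. The 4 V235fs arrays lay on 1 slide of their own and were scanned on the same day as the D272fs arrays. A difference between the knock-ins therefore cannot be told apart from a difference between their slides, nor a difference from control found in both from the day of scanning. That test called 30 probes (0.113%), and 3 of them were among the 229 that differed from control: M300013841, M200001601 and M300006344. M300013841 was 1.63 higher in D272fs than in V235fs (SE 0.11, limma adjusted p = 8.46e-05), where its ratios were between -0.61 and -0.47. M200001601 was measured 0.91 higher (SE 0.08, limma adjusted p = 6.52e-04), with V235fs ratios between 0.03 and 0.13. No V235fs array was well above background there, so its level in D272fs is given only as at least 1.58-fold higher than in V235fs. The probe was tested only because of its D272fs arrays, so the p of this call is no separate support. This call was lost with the negative control mean subtracted (difference 1.93, adjusted p = 0.120) and with normexp on the local background (difference 0.54, adjusted p = 0.256), both by limma.

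M300006344 had ratios of 1.41, 1.25, 1.10 and 1.14 in D272fs, 0.68, 0.82, 0.91 and 0.76 in control and 0.69, 0.76, 0.73 and 0.68 in V235fs. It was 0.43 higher than control (SE 0.08, limma adjusted p = 0.0301) and 0.51 higher than V235fs (SE 0.08, limma adjusted p = 0.0422). The D272fs arrays did not overlap either group. The call against control was kept under 18 of 30 alternatives and was lost with slide as a block (limma adjusted p = 0.428). That against V235fs was lost with the negative control mean subtracted (limma adjusted p = 0.0673). It was also lost with the negative control background after local subtraction (limma adjusted p = 0.0531) and with normexp on the local background (limma adjusted p = 0.516).

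For the probes that fell by more than 2, the same test called no difference between D272fs and V235fs. The D272fs minus V235fs difference was 0.33 (SE 0.12, limma adjusted p = 0.196) for M200003525 and 0.14 (SE 0.15, limma adjusted p = 0.764) for M400003274. A p that misses the threshold does not show that both knock-ins are alike. Their differences from control use the same 4 control arrays: for M200003525 they were -3.30 in D272fs and -3.62 in V235fs, and for M400003274 -2.20 and -2.34. M300001033 was well above background on 1 of 4 D272fs arrays and on 0 of 4 V235fs arrays, so its values there cannot rank the knock-ins; its control level was at least 6.14-fold higher than in V235fs. The probes that rose in D272fs had a median V235fs minus control difference of 0.63 (range -0.09 to 1.62), and those that fell one of -0.43 (range -3.62 to 0.03). The probes were chosen by their difference from the same 4 control arrays, which favours a shared direction. These medians therefore do not show a shared response.

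**Figure D2:**
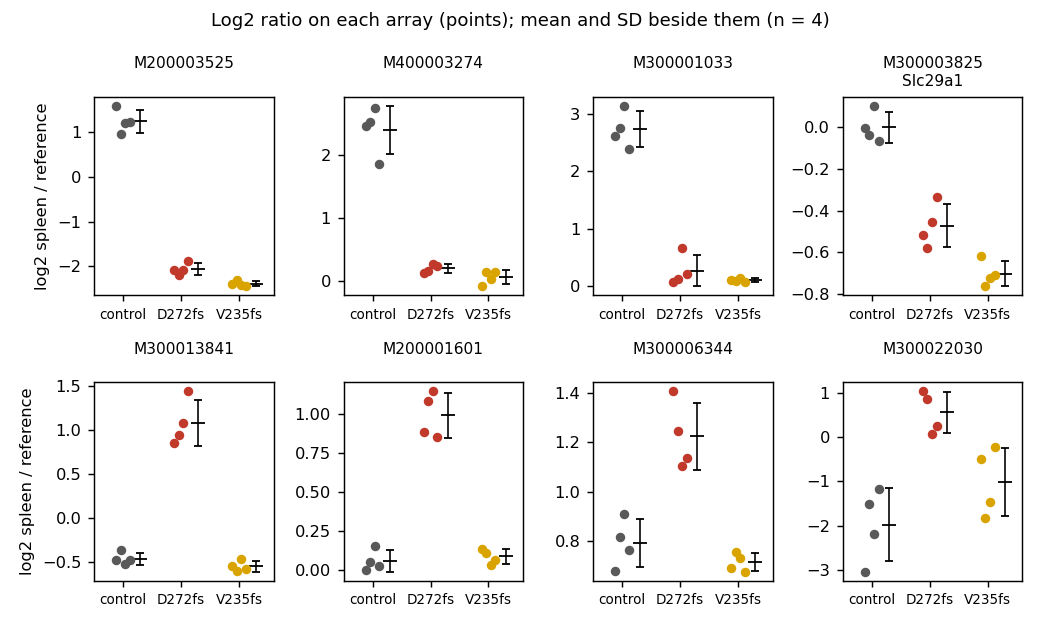
Log2 ratio of spleen over reference for 8 probes, 1 point per array, in control (grey), D272fs (red) and V235fs (yellow), with the mean and SD of the 4 arrays beside the points; each panel has its own vertical axis. M200003525, M400003274 and M300001033 are low in both knock-ins, whereas M300013841, M200001601 and M300006344 are high in D272fs and near control in V235fs.

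Every array held a universal reference, so its channel was tested alone as a check. Whether a single preparation of it served all arrays was not tested. It differed between the D272fs and control arrays at 2121 probes (8%), whereas the spleen channel alone differed at 247 (0.932%). Among the 229 probes called on the ratio, 52 were also called in the spleen channel alone in the same direction, 26 higher and 26 lower. The reference channel changed more than the spleen channel at 80 of the 152 probes called higher and at 17 of the 77 called lower. For probes called higher, the median change was 0.33 in the spleen channel and -0.32 in the reference. For probes called lower, the corresponding medians were -0.41 and 0.07. The spleen channel moved against the ratio at 9 of the 229.

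This weighed most on the large rises. Of the 28 probes that rose by more than 1, the reference channel changed more than the spleen channel at 20, while of the 5 that fell by more than 1 it did so at 0. M300022030, with the largest rise of all, is an example. Its ratios were 1.05, 0.88, 0.08 and 0.26 in D272fs and -3.05, -1.52, -2.20 and -1.16 in control, a difference of 2.55 (SE 0.44, limma adjusted p = 0.0284). Its reference signal was between 9.34 and 9.45 (log2 Cy5) on the D272fs arrays and between 10.99 and 11.55 on the control arrays. Its spleen signal was between 9.43 and 10.51 (log2 Cy3) in D272fs and between 8.42 and 10.39 in control, and these overlap. In the spleen channel alone the difference was 0.68 (SE 0.45, limma adjusted p = 0.386).

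M400010234 had the largest spleen-channel rise of the called probes, which is why it was singled out. Its ratios were 0.69, 0.90, 0.70 and 0.57 in D272fs and -0.91, -0.63, -0.67 and -0.67 in control, without overlap. The difference was 1.44 (SE 0.29, limma adjusted p = 0.0424), with 1.50 in the spleen channel and 0.06 in the reference, but the call was kept under 14 of 30 alternatives.

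**Figure D3:**
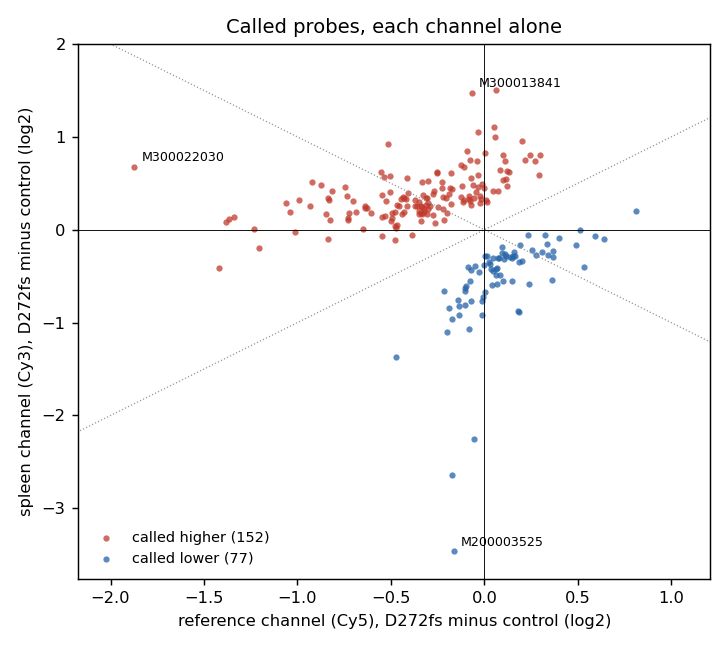
For each of the 229 called probes, the D272fs minus control difference in the reference channel (horizontal, log2 Cy5) is plotted against that in the spleen channel (vertical, log2 Cy3); dotted lines mark equal size in both channels. Points between the dotted lines at the left and right changed more in the reference than in the spleen, as 80 of the 152 probes called higher (red) and 17 of the 77 called lower (blue) did.

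Of the 191 probes that could be tied to a single gene by their sequence, 3 were called (1.57%, against 0.864% of all tested probes). M300003825 lies in Slc29a1, which encodes an equilibrative nucleoside transporter, at chr17:45595482-45595541 on the minus strand (GRCm38.p6). Its ratios were -0.52, -0.58, -0.46 and -0.34 in D272fs and 0.00, -0.04, 0.10 and -0.07 in control. The ratio for Slc29a1 was thus lower on every D272fs array than on any control array, with a mean difference of -0.47 (SE 0.07, limma adjusted p = 0.0173). The V235fs minus control difference was -0.70 (limma adjusted p = 0.00122). For D272fs minus control, the spleen channel gave -0.21 and the reference channel 0.26. In the spleen channel alone the probe was not called (limma adjusted p = 0.209), whereas in the reference channel alone it was (limma adjusted p = 0.0161). Spleen signals overlapped, between 6.53 and 6.87 (log2 Cy3) in D272fs and between 6.76 and 7.07 in control. The V235fs difference was likewise not of the spleen channel alone. On the V235fs arrays the spleen signal was between 6.56 and 6.77, which also overlaps control. Their reference signal was between 7.31 and 7.38 (log2 Cy5), against 6.83 to 7.05 on the control arrays.

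M400005380 lies in Clca3a1, a gene of the chloride channel accessory family, at chr3:144747535-144747594 on the minus strand. Its ratios were 4.87, 5.09, 5.04 and 5.01 in D272fs and 4.35, 4.66, 4.60 and 4.14 in control, a rise of 0.56 (SE 0.11, limma adjusted p = 0.0442). The call was kept under 9 of 30 alternatives. The V235fs minus control difference was 0.48 (limma adjusted p = 0.0285).

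M400013719 matched 1700096J18Rik over 35 bases, at chr11:109346882-109346916 on the plus strand. Its ratios were 0.47, 0.43, 0.58 and 0.69 in D272fs and 0.96, 0.94, 0.99 and 0.81 in control, a fall of 0.38 on the log2 scale (SE 0.07, limma adjusted p = 0.0363). The spleen channel alone gave -0.38 too, but was not called (limma adjusted p = 0.0537), and the call on the ratio was kept under 12 of 30 alternatives. A further called probe, M200006629, lies at chr17:24895128-24895187 within Mrps34, a mitochondrial ribosomal protein gene, but on the opposite strand. It changed by -0.29 (SE 0.06, limma adjusted p = 0.0478), of which -0.06 was in the spleen channel. The V235fs minus control difference was -0.28 for M400013719 and -0.26 for M200006629 (limma adjusted p = 0.0332 and 0.0246).

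Histone H4, a core protein of the nucleosome, is made in bulk when DNA is replicated, and several gene copies encode the same protein. All 6 probes with the H4 signature had a lower mean in D272fs than in control, and 2 passed the test; over all tested probes, 0.291% were called lower and 50.02% had a higher mean in D272fs. M400007082 had ratios of 0.30, 0.21, 0.54 and 0.04 in D272fs and 1.18, 0.93, 0.75 and 1.09 in control (log2 difference -0.72, SE 0.14, limma adjusted p = 0.0386). M400007644 had 0.38, 0.30, 0.58 and 0.13 against 0.88, 0.84, 0.88 and 1.03 (log2 difference -0.56, SE 0.11, limma adjusted p = 0.0386). In both, the highest D272fs array was replicate 3. The V235fs minus control differences at these probes, with the same control arrays, were -1.10 and -0.82 (limma adjusted p = 0.0030 and 0.0033), so the lower ratio was not particular to D272fs.

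The other 4 did not pass. M400008877 differed by -0.67 (adjusted p = 0.0502), M400008876 by -0.79 (adjusted p = 0.0533), M400008874 by -0.78 (adjusted p = 0.0631) and M400007604 by -0.98 (SE 0.67, adjusted p = 0.428), all by limma. In the spleen channel alone, where 0.932% of all tested probes were called, 5 of the 6 were, all but M400007604. The probes share sequence to different degrees: M400007082 shares 50 of 51 overlapping bases with M400008877, 55 of 60 with M400008874, 45 of 51 with M400008876 and 45 of 60 with M400007644, so they may not be separate measurements. With slide or scan day as a block none of the 6 was called.

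Location tied 2 further probes to H4 genes and also placed M400008874 in H4c3. M400006249 matched H4c9 over 25 bases, at chr13:22041313-22041337, and had ratios of -0.90, -1.03, 0.46 and -0.03 in D272fs against 1.04, 0.61, 0.53 and 1.33 in control (log2 difference -1.25, SE 0.40, limma adjusted p = 0.117). M200009516 lies in H4c8, at chr13:23531088-23531147, and differed by -0.14 (SE 0.16, limma adjusted p = 0.643). It was well above background on 3 D272fs and 3 control arrays, so its values lie near the lower limit of the measurement. At M400006249, M400007604 and M200009516 the D272fs arrays fell into a low pair, replicates 1 and 2, and a higher pair, replicates 3 and 4: for M400007604 the ratios were -1.62 and -1.95 against 0.39 and -0.09. The V235fs arrays were split at these probes too, with replicate 1 above the others. For M400007604 it stood at 0.42, against -2.61 to -2.11.

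**Figure D4:**
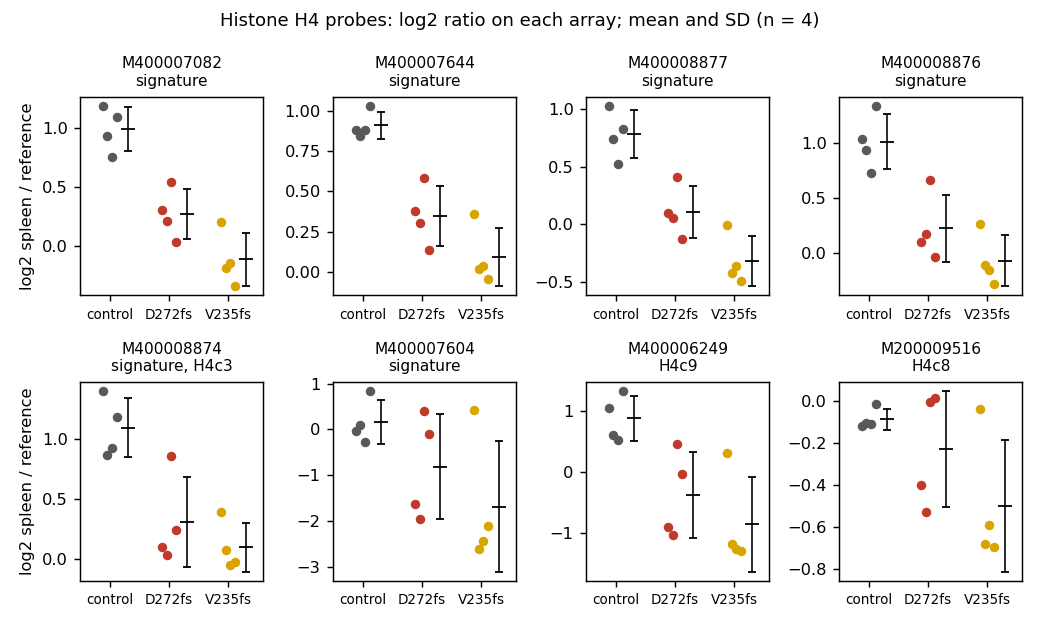
Log2 ratio of spleen over reference for the 6 probes with the histone H4 signature and 2 probes located in H4c9 and H4c8, 1 point per array, in control (grey), D272fs (red) and V235fs (yellow), with the mean and SD of 4 arrays; each panel has its own vertical axis. The D272fs mean is below the control mean in all 8 panels, and the D272fs arrays overlap the control arrays at M400007604 and M200009516.

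Gene lists for pathways and for the cell types of the spleen could be read at 8 located probes only, which fall in 6 of 26 lists. These were interferon-stimulated genes, replication-dependent histones (3 of the 8 probes), antigen presentation, the mitochondrial respiratory chain, plasma cells, and natural killer and cytotoxic cells. The lists for DNA and RNA sensing, DNA damage, the cell cycle, B cells and T cells held no located probe, so nothing can be said of them. None of the 8 was called by limma, against 0.864% of all tested probes; 4 reached an unadjusted p under 0.05, and so did 20.5% of all tested probes. Isg20, an interferon-induced exonuclease, had ratios of 1.27, 0.61, 0.20 and 0.87 in D272fs and 0.94, 1.03, 1.0 and 0.45 in control (log2 difference -0.11, SE 0.20, adjusted p = 0.794). All 4 control arrays lie within the range of the D272fs arrays. Psmb9, a subunit of the interferon-induced immunoproteasome, differed by -0.08 in limma's fit (SE 0.13, adjusted p = 0.787), with D272fs between 1.88 and 2.23 and control between 1.90 and 2.52. The sign of both differences turned under some alternatives. Only these 2 of the 74 listed interferon-stimulated genes could be read.

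Among the cell type markers, Jchain, which joins the subunits of secreted IgM and IgA in plasma cells, had ratios of -0.40, -0.69, -0.46 and -0.53 in D272fs and -0.24, -0.30, -0.30 and -0.26 in control. The arrays did not overlap, but the difference of -0.24 (SE 0.07) was not called (limma adjusted p = 0.101). Klra8, a receptor of natural killer cells, differed by -0.24 (SE 0.13, limma adjusted p = 0.294) with overlapping arrays. Its probe was well above background on 3 D272fs arrays and all 4 control arrays, so the size of the difference is uncertain. In whole spleen, fewer cells of a type and less RNA per cell cannot be told apart. Atp5o, a subunit of mitochondrial ATP synthase, had ratios of -1.95, -2.0, -1.25 and -1.27 in D272fs and -1.0, -1.01, -1.18 and -0.90 in control (log2 difference -0.59, SE 0.24, limma adjusted p = 0.193), with D272fs replicates 1 and 2 again the lower pair. V235fs replicate 1 stood at -1.14 for Atp5o and the other V235fs arrays between -2.28 and -2.03.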

How the data were processed

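Scanner intensities of 37558 spots on each of 12 two-colour Agilent arrays were deposited, which Feature Extraction 11.5.1.1 had read, per the file headers; no saturated spot was removed. The authors' value table held log10 ratios of Cy5 over Cy3 that lay within 0.005 of the scanner files' own, so its scale and direction are settled. With limma 3.58.1 in R 4.3.3, mean intensities were corrected from the 153 negative control spots (nec, offset 50), since a normexp fit on local background failed on D272fs replicate 3, then loess was run within arrays, giving control spots no weight; outlier spots were set to missing and spots of a probe averaged. Probes well above background in Cy3 on at least 4 of 12 arrays, with at least 2 values per group, were fitted with 1 mean per group over all 12 arrays (9 residual and 3.09 prior degrees of freedom). Single channels were tested after loess and Aquantile. The fit was tested on simulated data. The number of arrays limits the precision.

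Named were the called, non-overlapping probes with a gene name, up to 2 unnamed per direction by size and list members; others were singled out after their values were seen. No probe was tied to Trex1, and whether M200003525 reads it was not tested. A name needed an exact match of at least 25 bases in a RefSeq start window, a choice made after seeing the data. Members and lists were chosen with earlier results of these data known. Alternatives covered background, normalisation, filter, channel, blocks, variance model and each array left out; the controls of each scan day were added later.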

Additional observations from a re-analysis of the deposited data

Results flagged for a closer look

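M300013841, M200001601 and M300006344 differed between the knock-ins by the test of that difference, by 1.63, 0.91 and 0.51 log2 units, higher in D272fs each time. None of the V235fs arrays had M200001601 well above background, so only a difference of at least 1.58-fold is supported for it. That probe also entered the test only through its D272fs arrays. The call for M300006344 was lost under some other background settings.

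A gap between 1 array and the other 3 of its group was looked for in 60 groups of 4 values. It was found in 4 of them, where chance gives about 1 in 20. M400010234 stood at -0.91 on control replicate 1, below the other controls. M200009516 (H4c8) stood at -0.016 on control replicate 4, above the others, and M300012051 (Isg20) at 0.45 on control replicate 4, below the others. D272fs replicate 2 correlated with the rest of its group at 0.980, above the other 3 arrays.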

How the results depend on the processing

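The number of probes called between D272fs and control (229, of which 152 higher and 77 lower) moved by more than 1.5 times under most settings. Counts given for normexp on the local background, here and below, come from a fit that failed on D272fs replicate 3. It was 20 (9 and 11) with normexp on the local background, 142 (40 lower) with the negative control mean subtracted, 122 (83 and 39) with Feature Extraction's processed ratios, 122 (84 and 38) with the authors' value table, 3399 (3250 lower) with median centring, 5 (2 and 3) and 6 (3 and 3) when slide or scan day was a random block, 23 (17 and 6) when a fixed effect of slide position was fitted, 17 (10 and 7) with only 8 arrays and 1926 (1061 and 865) with array weights. The controls of scan day 1 alone gave 1962 (859 and 1103) and those of scan day 2 alone 538 (356 and 182), settings chosen after seeing the data. Leaving out 1 array gave 19 to 647 calls, 13 to 464 higher and 6 to 183 lower. Every alternative except median centring and the spleen channel alone kept the sign of all 229 probes it tested; these kept 226 and 220.

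Calls between D272fs and V235fs (30) were 1 with normexp on the local background, 12 with the negative control mean subtracted and 2 to 421 with 1 array left out: 421 without D272fs replicate 3, 302 without V235fs replicate 1 and 2 to 5 without any other.

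With the replicate block 31 probes were called (22 higher, 9 lower), and 5 between the knock-ins. Same-numbered D272fs and control arrays deviated together at correlations of -0.24 to 0.06, so they share only a number.

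No called probe named here reversed. Of the uncalled ones, Klra8 was 0.012 in the spleen channel alone, Isg20 was 0.11 with position fitted, -0.29 to 0.065 with 1 array left out (above 0 without D272fs replicate 3) and 0.044 against the controls of scan day 1, and Psmb9 was 0.075 with array weights, -0.15 to 0.050 with 1 array left out (above 0 without control replicate 1) and 0.14 against the controls of scan day 2. The gene lists had too few located probes for a median, so list medians were not run. Signals near background limit M300001033, M200001601, M300001275 (Klra8) and M200009516 (H4c8).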
